A study of Mus musculus with 10 samples.

Results

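The step from long-term hematopoietic stem cells (LT-HSC) to lymphoid-primed multipotent progenitors (LMPP) was followed in wild-type (WT) C57BL/6 mouse bone marrow through 4 of the 10 ATAC-seq libraries of the series, 2 of LMPP and 2 of LT-HSC. ATAC-seq uses a transposase to cut and tag open DNA, so a peak marks a stretch of accessible chromatin. The peaks of the 4 lists on chromosomes 1 to 19 and X were merged where they shared 1 bp, which gave 79781 regions. A region listed in both LMPP libraries and in neither LT-HSC library was called gained, and the reverse was called lost, which gave 14877 gained and 1874 lost regions. The calls were repeated with each list cut to its first 31314 rows, the length of the shortest list, which gave 44074 regions with 5019 gained and 4033 lost.

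LMPP were sorted as lineage-negative, CD117+ Sca-1+ CD135+ cells, and LT-HSC as lineage-negative, CD117+ Sca-1+ CD135- CD48- CD150+ cells, after magnetic enrichment. The other 6 libraries were 2 each of IRF8-deficient monocyte-dendritic cell progenitors (IRF8KO MDP; lineage-negative, Sca-1- CD117+ IL-7R- CD115+), of WT MDP with the same markers, and of WT common dendritic cell progenitors (CDP; the same with CD117int and CD135+). All groups share the C57BL/6 background. One label of the LMPP libraries reads short-term stem cells while their titles and the series' design name LMPP, so LMPP here means cells of that gate. The labels call the libraries of a WT cell type biological duplicates but do not tie them to animals, so the agreement of replicates measures the spread between these libraries. In bulk lists, fewer cells with an open site and a weaker signal per cell cannot be told apart.

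LT-HSC are the self-renewing cells at the top of blood formation and keep the potential for every blood lineage. LMPP carry the cytokine receptor FLT3 (CD135), have lost most potential for red cells and platelets, and still give rise to lymphoid, dendritic and myeloid cells. GATA factors drive the red cell and platelet programmes through sites read as GATA, and PU.1, an ETS-family factor of myeloid and lymphoid cells, binds purine-rich sites around GGAA.

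The promoters shown here were chosen after their values were seen, and most promoters of the marker lists used below were not called. Promoter windows ran from 250 bases before to 50 bases after each RefSeq start. Of 21045 such windows, 65 (of 62 genes) lay under lost regions and 310 (of 284 genes) under gained ones. Of list members with a window, 3 of 13 erythroid and 2 of 13 neutrophil and granule genes had one under a lost region. Under gained regions were windows of 2 of 21 lymphoid priming, 2 of 9 plasmacytoid and 2 of 11 conventional dendritic cell genes. Of 13 neutrophil and granule (Mpo), 12 megakaryocyte (Selp), 10 mast cell and basophil and 11 monocyte and macrophage genes it was 1 each. Of B cell genes it was 0 of 8. Hbb-bs, Kel and Tlr9 are in none of the lists. Hbb-bs (adult beta-globin), Kel (the Kell blood group protein), Klf1 (an erythroid transcription factor) and Rhag (the Rh-associated glycoprotein) are red cell genes whose promoters held a peak in both LT-HSC libraries and in neither LMPP library. Their 250 bases before the start are shown from RefSeq in mm10, 5′ to 3′ on the gene's strand, with GATA letters (AGATAA or TGATAA, or TTATCT or TTATCA on the other strand) in capitals.
Hbb-bs promoter, chr7:103827929-103828178, - strand: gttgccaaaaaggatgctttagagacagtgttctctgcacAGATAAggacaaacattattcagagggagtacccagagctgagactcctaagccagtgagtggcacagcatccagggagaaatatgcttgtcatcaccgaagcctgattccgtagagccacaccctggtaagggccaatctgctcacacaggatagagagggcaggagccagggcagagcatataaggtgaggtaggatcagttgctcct
Kel promoter, chr6:41704326-41704575, - strand: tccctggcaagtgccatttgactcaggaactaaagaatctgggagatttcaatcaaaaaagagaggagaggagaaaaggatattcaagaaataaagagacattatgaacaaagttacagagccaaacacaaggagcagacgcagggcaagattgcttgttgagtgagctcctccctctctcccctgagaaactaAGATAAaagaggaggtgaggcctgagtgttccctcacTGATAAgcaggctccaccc
Klf1 promoter, chr8:84901732-84901981, + strand: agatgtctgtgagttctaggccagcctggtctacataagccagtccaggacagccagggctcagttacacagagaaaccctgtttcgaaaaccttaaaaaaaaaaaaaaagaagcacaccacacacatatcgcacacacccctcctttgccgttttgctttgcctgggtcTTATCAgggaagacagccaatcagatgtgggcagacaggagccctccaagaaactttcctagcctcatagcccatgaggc
Rhag promoter, chr17:40810899-40811148, + strand: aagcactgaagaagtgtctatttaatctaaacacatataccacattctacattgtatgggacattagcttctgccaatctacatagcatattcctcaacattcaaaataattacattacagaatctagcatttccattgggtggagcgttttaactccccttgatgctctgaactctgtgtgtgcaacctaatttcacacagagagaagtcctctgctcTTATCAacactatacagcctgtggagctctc

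Btla (an inhibitory receptor of lymphoid and dendritic cells), Siglech (a surface marker of plasmacytoid dendritic cells), Tlr9 (an endosomal receptor for CpG-rich DNA) and Mpo (myeloperoxidase, a granule enzyme of myeloid progenitors) had promoters with a peak in both LMPP libraries and in neither LT-HSC library. Their 250 bases before the start are shown in the same way, with the PU.1 core letters GAGGAA, on either strand, in capitals. The Siglech stretch has no capitals because its match lies in the 50 bases after the start.
Btla promoter, chr16:45224087-45224336, + strand: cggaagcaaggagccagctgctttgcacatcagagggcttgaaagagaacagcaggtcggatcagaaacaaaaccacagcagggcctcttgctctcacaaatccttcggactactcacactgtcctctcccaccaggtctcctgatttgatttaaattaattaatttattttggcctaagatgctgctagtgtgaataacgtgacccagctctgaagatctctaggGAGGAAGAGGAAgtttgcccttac
Siglech promoter, chr7:55767934-55768183, + strand: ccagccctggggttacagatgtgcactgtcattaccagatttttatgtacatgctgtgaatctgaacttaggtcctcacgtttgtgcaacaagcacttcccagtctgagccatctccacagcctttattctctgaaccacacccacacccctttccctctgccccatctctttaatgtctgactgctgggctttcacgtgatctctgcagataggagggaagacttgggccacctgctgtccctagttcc
Tlr9 promoter, chr9:106222348-106222597, + strand: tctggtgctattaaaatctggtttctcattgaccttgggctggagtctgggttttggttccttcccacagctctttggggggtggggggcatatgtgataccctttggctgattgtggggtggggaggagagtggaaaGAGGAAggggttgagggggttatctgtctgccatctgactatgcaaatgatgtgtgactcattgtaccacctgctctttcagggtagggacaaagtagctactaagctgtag
Mpo promoter, chr11:87793534-87793783, + strand: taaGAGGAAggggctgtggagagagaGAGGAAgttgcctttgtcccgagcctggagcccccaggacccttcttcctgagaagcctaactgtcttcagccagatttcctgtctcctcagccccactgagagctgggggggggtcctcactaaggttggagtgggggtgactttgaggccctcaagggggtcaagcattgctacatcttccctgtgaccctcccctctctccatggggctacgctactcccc

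MicroRNA hairpins lay near gained and lost regions at about the share of all regions called. The measures differ, as 1 is a share of hairpins and the other of regions, and clustered hairpins can count the same region. Of 496 hairpins of the RefSeq table within 5 kb of any region, 85 (17.1%) lay within 5 kb of a gained region and 11 (2.22%) within 5 kb of a lost one, against 18.6% and 2.35% of all regions. miR-144 and miR-451a, made from 1 cluster and abundant in red cell precursors, lay beside a lost region, whereas miR-223, a microRNA of myeloid cells, and miR-125a, a microRNA studied in stem cell maintenance, lay at gained regions. These 4 were picked after their values were seen, and the mature sequences are given from RefSeq in mm10 with the seed (bases 2 to 8) in capitals. No seed is shared among the 4.
mmu-miR-144-3p, chr11:78073047-78073066, + strand: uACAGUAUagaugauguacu
mmu-miR-451a, chr11:78073186-78073207, + strand: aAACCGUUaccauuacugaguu
mmu-miR-223-3p, chrX:96242884-96242905, + strand: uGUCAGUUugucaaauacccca
mmu-miR-125a-5p, chr17:17830817-17830840, + strand: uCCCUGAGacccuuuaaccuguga

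The LT-HSC libraries were unequal, which touches each count below. The LMPP libraries had 63338 and 64162 peaks, against 31314 and 52132 in LT-HSC 1 and 2, and 46.4% and 47.8% of LMPP tags lay in peaks, against 19.3% and 38.1% of LT-HSC tags. Total tags were close, with 6478095 and 5789312 in LMPP and 5479825 and 6047916 in LT-HSC. Mean peak number was 63750 ± 583 in LMPP and 41723 ± 14721 in LT-HSC (SD, n = 2 each), with an exact two-sided permutation p of 0.333, the smallest that 2 against 2 libraries allow. LT-HSC 1 stood apart with the shortest list and the lowest share of tags in peaks. A further 12638 regions were in both LMPP libraries and LT-HSC 2 but not in LT-HSC 1, against 402 in both LMPP libraries and LT-HSC 1 but not LT-HSC 2.

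**Figure D1:**
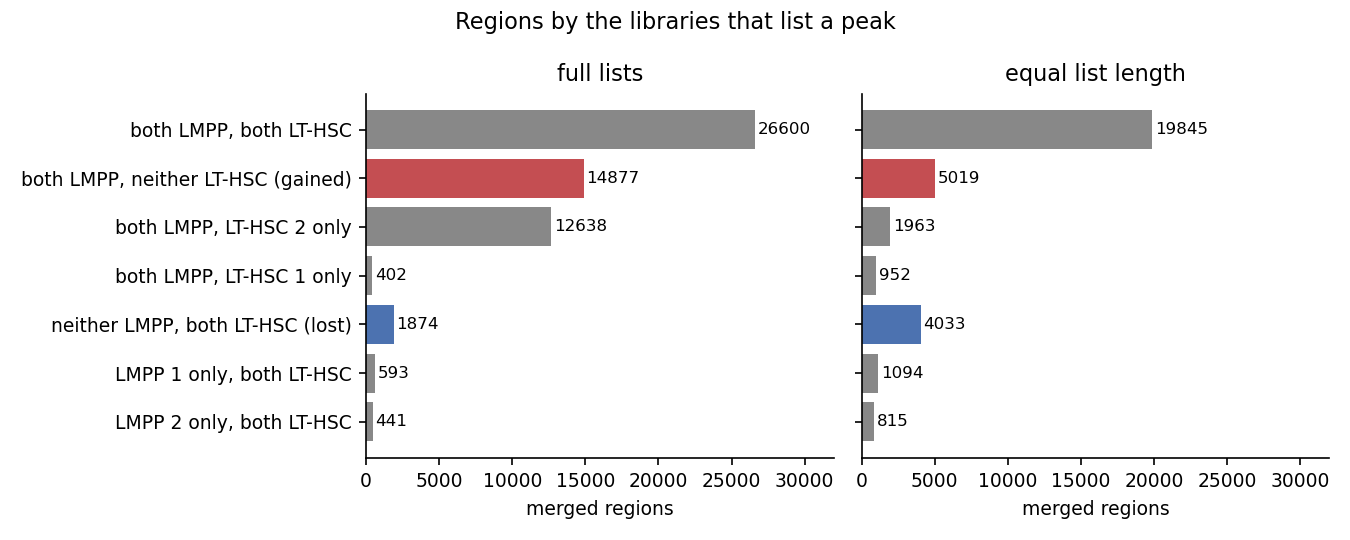
Number of merged regions (x axis) for 7 patterns of detection over the 4 libraries, with full lists on the left and lists of equal length on the right. With full lists the gained regions (14877, red) outnumber the lost ones (1874, blue), while at equal length they are 5019 and 4033.

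Gained regions were 18.6% and lost regions 2.35% of all regions with full lists. At equal length they were 11.4% and 9.15%. Without LT-HSC 1 the counts were 15281 gained and 7937 lost, and without LT-HSC 2 they were 27608 and 2357, so the number of lost regions rests on LT-HSC 1 and that of gained regions on LT-HSC 2. Of the 5019 regions gained at equal length, 2535 (50.5%) had no peak in either full LT-HSC list, and the other 2484 had a peak further down the list of LT-HSC 2. Of the 4033 regions lost at equal length, 1151 (28.5%) had no peak in either full LMPP list. Near the row limit, 9.07% of the gained regions had their best LT-HSC 2 row at most 10% past it, and 16.8% of the lost regions had an LMPP row at most 10% past it.

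A call from 1 pair of libraries held in the other pair in part. Of the regions listed in 1 LMPP and absent from 1 LT-HSC library, the other LMPP library listed and the other LT-HSC library lacked 41.4% to 70.7% over the 4 ways to choose the pair, and 54.4% to 64.4% at equal length. For regions listed in 1 LT-HSC and absent from 1 LMPP library, the shares were 18.4% to 67.8%, and 47.0% to 52.3% at equal length. The lowest shares for lost regions were those called from LT-HSC 2, and LT-HSC 1 listed 24.2% and 23.4% of the regions in question.

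The called regions sat mostly among the weaker peaks. Row position and calls come from the same lists, and a shorter list lacks more of the weak peaks. This trend is therefore a description, and how much of it reflects a difference between the cells was not tested. The row position of a peak in its list is given here as a percent from the top, on the assumption that rows run from strong to weak. Among regions in both LMPP lists, the share called gained was 0.511% at mean LMPP row positions of 0 to 10% and 67.8% at 90% to 100%, while LT-HSC 1 listed 97.7% and 8.36% of these and LT-HSC 2 listed 99.4% and 31.2%. Among regions in both LT-HSC lists, the share called lost was 0.132% at LT-HSC row positions of 0 to 10% and 30.8% at 90% to 100%, where the LMPP libraries still listed 62.8% and 63.1%. The median gained region stood at 67.1% and 64.9% of the 2 LMPP lists, against 23.5% and 23.3% for regions shared by all 4 libraries. The median lost region stood at 75.2% and 52.5% of the LT-HSC lists, against 44.2% and 26.4% for shared regions.

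**Figure D2:**
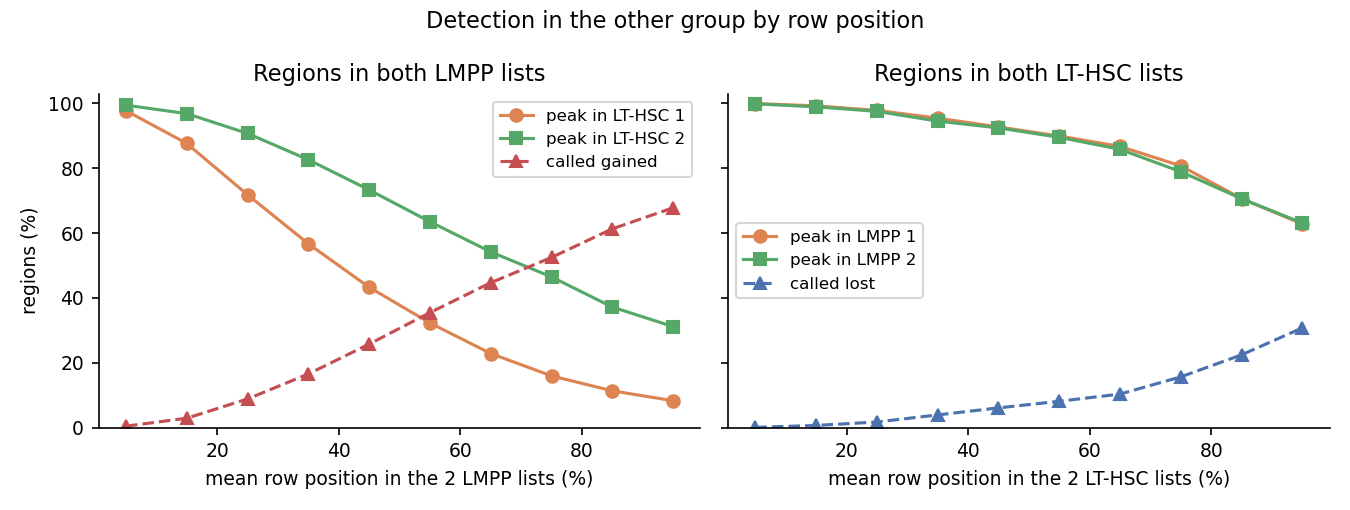
Share of regions (y axis, %) with a peak in each library of the other group, and share called gained or lost, by mean row position (x axis, % of the list, 0 at the top); LMPP regions are on the left and LT-HSC regions on the right. Detection in LT-HSC 1 and 2 falls along the LMPP lists to 8.36% and 31.2%, while detection in the LMPP libraries stays at 62.8% or more along the LT-HSC lists.

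A few strong peaks changed nonetheless. The gained region of best mean row position, chr7:55784122-55785397, lay 5.31 kb from the gene span of Siglech and stood at 2.13% and 2.12% of the LMPP lists. It stayed near the top of the lists in IRF8KO MDP (6.11% and 8.75%), WT MDP (3.90% and 3.84%) and WT CDP (3.91% and 3.57%). The next 4 lay in Ccdc93, near Pfpl (a perforin-like gene), in Psd3 and near Olfr985 (an olfactory receptor gene), with mean row positions of 2.33% to 4.65%, and each was listed in all 6 other libraries. The lost region of best mean row position lay in Cavin2, a caveola protein gene active in platelets, at chr1:51299774-51301137 and 2.60% and 2.75% of the LT-HSC lists. The next 3 lay in or near Ndst3 (2 regions; a heparan sulfate enzyme) and in Gypc (glycophorin C of the red cell membrane), with means of 8.95% to 9.42%, and none of these 4 was listed in any of the 6 other libraries. All 9 kept their call at equal length.

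Gained and lost regions lay near gene ends less often than all regions did. Of the gained regions 5.65% (Wilson 95% interval 5.29% to 6.03%) and of the lost regions 7.20% (6.12% to 8.46%) were within 1 kb of an end of a protein-coding gene, against 39.8% (39.2% to 40.3%) of shared regions. At equal length the shares were 5.56%, 16.5% and 46.4%, so lost regions lay at gene ends more often there. Over all regions the share was 18.6% with full lists and 27.9% at equal length. Shared regions were also wider, with a median of 1234 bp with full lists, against 643 bp for gained and 665 bp for lost ones. Intervals cover counting error only, and neighbouring regions are not independent.

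Among promoter windows, lost ones held GATA letters and gained ones PU.1 letters more often than the rest. GATA letters were in 27 of the 65 windows under lost regions (41.5%, Wilson 95% interval 30.4% to 53.7%), in 13.9% (10.5% to 18.2%) of the 310 under gained regions, in 8.71% of the 10970 under shared regions, in 26.2% of the 8105 under no region and in 15.8% of all 21045 windows. PU.1 core letters were in 40.3% (35.0% to 45.9%) of windows under gained regions, 21.5% (13.3% to 33.0%) under lost regions, 25.7% under shared regions, 28.5% under no region and 27.2% of all windows. AP-1 letters (TGACTCA) were in 12.3% (6.37% to 22.5%) of windows under lost and 4.84% (2.95% to 7.83%) under gained regions, against 4.69% of all windows. ETS letters (AGGAAG, which can overlap the PU.1 letters) were in 41.9% and 32.3%, RUNX letters (TGTGGT or TGCGGT) in 26.1% and 27.7%, E-box letters (CAGCTG or CACCTG) in 33.9% and 40.0%, C/EBP letters (TTGCNNAA) in 10.6% and 7.69%, and IRF letters (GAAANNGAA) in 12.3% and 13.8% of windows under gained and lost regions. Over all windows these stood at 34.1%, 21.4%, 32.2%, 10.3% and 8.10%, and both strands were searched for each motif.

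The PU.1 share kept at equal length and the GATA share did not. At equal length PU.1 letters were in 39.7% (32.4% to 47.6%) of 156 windows under gained and 22.7% (19.3% to 26.5%) of 520 under lost regions. GATA letters were then in 11.5% (7.42% to 17.5%) and 12.7% (10.1% to 15.8%), so they no longer set the lost windows apart, and 41 of the 65 windows lost with full lists were among the 520. With LT-HSC 1 left out, GATA letters were in 26.8% of 213 windows under lost regions and 13.9% of 330 under gained ones, and PU.1 letters in 28.6% and 39.4%. With LT-HSC 2 left out, GATA letters were in 40.3% of 72 windows under lost regions, and PU.1 letters in 31.6% of 1201 under gained ones, nearer to the 27.2% of all windows. A match is letters in a window and does not show that a factor binds there.

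**Figure D3:**
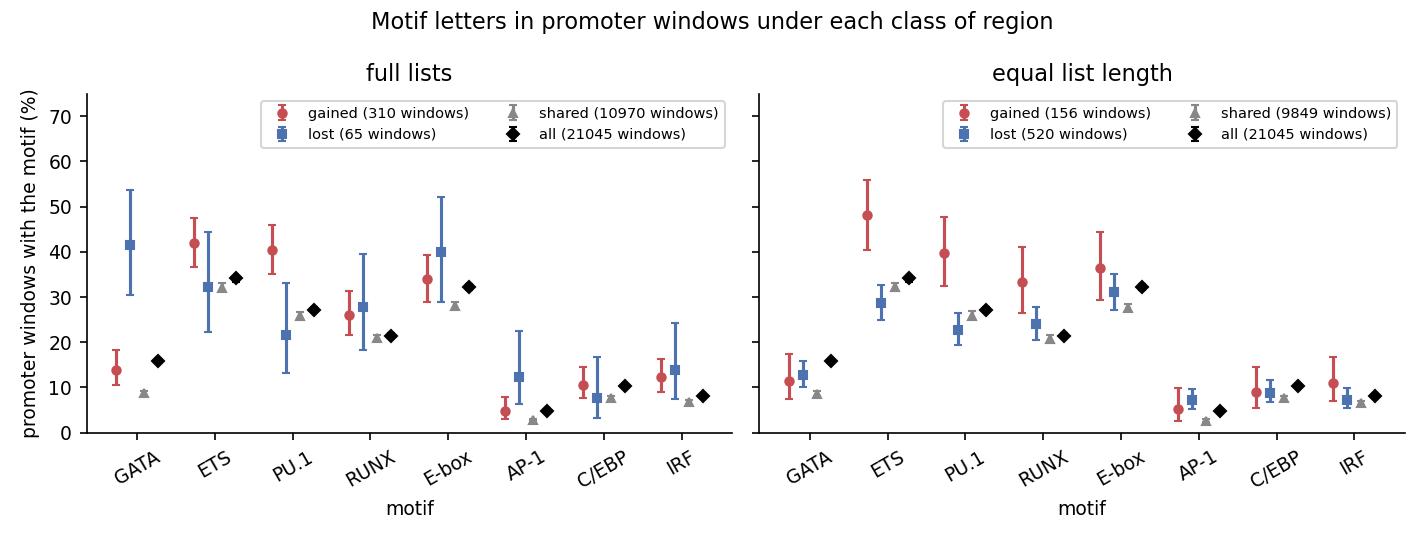
Share of promoter windows (y axis, %) with each motif's letters (x axis) under gained, lost and shared regions and over all windows, with Wilson 95% intervals, for full lists (left) and equal length (right). GATA letters stand at 41.5% under lost regions with full lists and at 12.7% at equal length, while PU.1 letters stand at 40.3% and 39.7% under gained regions.

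The lost red cell promoters named here had peaks in both LT-HSC libraries, mostly at middling ranks. The Hbb-bs promoter region (chr7:103827727-103828616) was listed in neither LMPP library and stood at 33.2% and 24.7% of the LT-HSC lists, and a second lost region lay 0.429 kb from the gene. The Hbb-bt promoter region was at 38.3% and 38.5% of the LT-HSC lists. Hbb-bs and Hbb-bt are near-identical copies, so reads may have been split between them. Kel stood at 38.1% and 45.9%, Trim10 (a gene of late red cell differentiation) at 45.6% and 40.1%, and Tspo2 (an erythroid cholesterol-binding protein) at 32.6% and 30.3% of the LT-HSC lists. Klf1 stood at 90.0% and 33.9%, Rhag at 85.2% and 57.9%, and Gata1 at 99.0% and 55.8%, so these 3 rested on low rows of LT-HSC 1. The Gata1 window held no GATA letters. All 8 were also lost at equal length, and none was listed in the 6 other libraries except Hbb-bt, which WT CDP 2 listed at 97.9%.

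The gained promoters of lymphoid, dendritic and myeloid genes stood over a wide range of ranks. The Btla promoter region (chr16:45222752-45225129) stood at 12.1% and 12.7% of the LMPP lists and was in neither LT-HSC list. The Siglech promoter region stood at 14.3% and 16.7%, and that of Tlr9 at 24.6% and 28.3% of the LMPP lists. In later cells the Tlr9 region stood at 33.8% and 58.5% in IRF8KO MDP, 3.14% and 6.15% in WT MDP and 2.54% and 2.45% in WT CDP. These 3 were gained at equal length too. Mpo stood at 52.0% and 43.9% of the LMPP lists and was not called gained at equal length. It stood at 0.528% and 0.440% in IRF8KO MDP and 2.83% and 3.10% in WT MDP, and was in neither WT CDP list. Itgax (CD11c), Lck (a T cell kinase) and Dntt (terminal transferase, which adds bases at antigen receptor joints) had promoter regions at 53.2% and 63.8%, 54.6% and 69.1%, and 76.5% and 89.1% of the LMPP lists. The Lck and Dntt promoter regions were in none of the 6 other libraries. Of the 310 gained windows, 47 were gained at equal length and 220 lay under no region there.

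The region beside the miR-144 and miR-451a cluster, chr11:78069348-78070263, lay 2.74 kb from the miR-144 hairpin and stood at 63.5% and 38.7% of the LT-HSC lists. It was in neither LMPP list and in none of the 6 other libraries, and it was lost at equal length. The region over the miR-223 hairpin (chrX:96242282-96242949) stood at 67.0% and 79.2% of the LMPP lists, 83.6% and 99.4% in IRF8KO MDP and 88.0% and 65.1% in WT CDP, and was in neither LT-HSC nor WT MDP list. The region 0.0450 kb from the miR-125a hairpin stood at 99.0% and 78.7% of the LMPP lists and was in no other library. Neither of the last 2 was called at equal length.

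Each region was then given to its nearest protein-coding gene within 100 kb, and a gene's net change is its gained minus its lost regions. With full lists 38.0% of 16391 genes had a net gain and 4.09% a net loss. At equal length 17.2% of 14515 genes had a net gain and 15.3% a net loss. Among all regions given to genes, 18.1% were gained and 2.27% lost with full lists, and 10.8% and 8.92% at equal length. The gene lists were written with earlier results of these data known, so their counts are descriptions.

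The genes behind the sort were uneven. Cd48, whose protein LT-HSC were sorted to lack, had 5 and 5 of its 6 regions listed in LMPP, against 0 and 2 in LT-HSC 1 and 2; 4 of the 6 were gained, and 2 of 2 at equal length. Slamf1, the gene of CD150, had 2 and 4 of its 6 regions listed in LMPP, against 3 and 4 in LT-HSC, with 1 lost region (chr1:171773108-171773778) and no gained one. Flt3, the gene of CD135, had 8 and 7 of 10 regions listed in LMPP, against 3 and 7 in LT-HSC, with none called with full lists and 1 gained at equal length. Kit (CD117) had 8 and 8 of 11 regions in LMPP, against 3 and 6 in LT-HSC, with 3 gained with full lists and 1 lost at equal length. Ly6a (Sca-1) had 1 region, listed in LT-HSC 1.

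Red cell genes held more lost than gained regions. The 20 erythroid genes had 149 regions, of which 22 (14.8%) were lost and 14 (9.40%) gained, against 2.27% and 18.1% over all genes. At equal length 28 of 99 (28.3%) were lost and 5 (5.05%) gained, against 8.92% and 10.8%. Of 19 members with a region, 11 had a net loss and 4 a net gain with full lists, and 12 of 18 a net loss and 1 a net gain at equal length. The median net change per member was -1 in both list lengths, against 0 over all genes. Without LT-HSC 1, 26.4% were lost against 9.81% over all genes, and without LT-HSC 2, 26 of 137 were lost against 3.09% over all genes. The net of -8 regions was 2, 2 and 5 without LMPP 1, LMPP 2 and LT-HSC 2, and -24 without LT-HSC 1.

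Zfpm1 (FOG1, the cofactor of GATA1) had 8 and 6 of its 16 regions listed in LMPP, against 10 and 14 in LT-HSC, with 4 lost and none gained. The strongest of these, chr8:122308849-122310055 within the gene, stood at 16.8% and 13.4% of the LT-HSC lists. Nprl3, whose introns hold the alpha-globin enhancers in mouse, had 5 and 4 of 9 regions listed in LMPP, against 7 and 8 in LT-HSC, with 4 lost, 3 of them within the gene at 34.1% to 56.8% of the LT-HSC lists. The alpha-globin gene Hba-a1 had 1 region, which was lost, 0.913 kb from the gene and at 37.1% and 41.0% of the LT-HSC lists. Slc4a1 (the band 3 anion exchanger) lost 2 of 4 regions, at 54.1% and 18.9% and at 41.7% and 29.5% of the LT-HSC lists. Alas2 (the first enzyme of haem synthesis in red cells) and Gata1 lost 2 of 2 and 2 of 3 regions; the Gata1 regions kept the call at equal length and the Alas2 regions did not. Bcl11a, a fetal globin repressor with a role in lymphoid cells, held 9 of the 14 gained regions of the list. Of the 22 lost regions, 17 were also lost at equal length, 4 were listed in both WT CDP libraries, 0 in both WT MDP libraries and 18 in none of the 6 other libraries.

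Platelet genes were below the background in gained regions and above it in lost ones. The megakaryocyte genes had 99 regions, of which 11 (11.1%) were gained and 6 (6.06%) lost, against 18.1% and 2.27% over all genes. At equal length 2 of 67 (2.99%) were gained and 19 (28.4%) lost, against 10.8% and 8.92%, and 11 of 16 members had a net loss, against 15.3% of all genes, and 0 a net gain. The net of 5 regions with full lists was -17 at equal length, -6 without LT-HSC 1 and -4 with the first 50% of each list's rows. Vwf (von Willebrand factor) lost 3 of 13 regions and gained 2, with the lost ones at 33.9% to 41.9% of LT-HSC 2 and 59.1% to 82.0% of LT-HSC 1. Cavin2 lost 2 of 4 regions. Itgb3 (platelet integrin beta 3) gained 2 of 10 with full lists and lost 2 of 6 at equal length, and Tubb1 (platelet tubulin) lost 2 of 2 at equal length and none with full lists.

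Stem cell genes were near the background with full lists and somewhat above it in lost regions at equal length. Of 314 regions of stem cell genes, 51 (16.2%) were gained and 8 (2.55%) lost, close to the 18.1% and 2.27% of all genes. At equal length 15 of 172 (8.72%) were gained and 20 (11.6%) lost, against 10.8% and 8.92% of all genes, and 6 of 23 members had a net loss against 15.3%. Without LT-HSC 1, 17.0% were gained and 14.4% lost, against 18.7% and 9.81%. Mecom (a regulator of stem cell self-renewal) had 35 and 36 of 44 regions listed in LMPP, against 9 and 30 in LT-HSC, with 11 gained and none lost. None of these 11 was called at equal length, where 3 other regions of Mecom were gained and 2 lost. Mllt3 gained 10 and lost 1 of 24, with 3 gained and 3 lost at equal length, Meis1 (a homeobox cofactor of stem cells) gained 7 of 35, and Prdm16 gained 6 of 23 with none lost. Of the 51 gained regions, 28 were in none of the 6 other libraries, against 29.1% of all gained regions, and 12 were in both WT MDP libraries, against 48.1%.

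Lymphoid priming genes were above the background in gained regions and below it in lost ones, which other lists shared in part. They had 269 regions, with 65 (24.2%) gained and 2 (0.743%) lost, against 18.1% and 2.27% over all genes. Of 24 members 18 had a net gain, against 38.0% of all genes. At equal length 25 of 143 (17.5%) were gained and 10 (6.99%) lost, against 10.8% and 8.92%. There 12 of 24 members had a net gain, against 17.2% of all genes. The median net change per member was 2.00 and 0.500, against 0 over all genes at both list lengths. With full lists, 9 of 11 T and NK cell genes, 9 of 12 TGF-beta and BMP genes and 8 of 11 neuronal genes also had a net gain, and the neuronal median was 2.00 too. At equal length endothelial and stromal genes had a higher gained share, 22.2%. Without LT-HSC 1 the shares were 26.3% gained and 6.30% lost, against 18.7% and 9.81% over all genes. Dntt had 10 and 9 of its 11 regions listed in LMPP, against 1 and 3 in LT-HSC, with 6 gained and none lost. The strongest Dntt region, chr19:41021649-41023366, 6.77 kb from the gene span, stood at 10.0% and 9.54% of the LMPP lists and at 79.4% and 65.9% in WT MDP and 71.7% and 73.0% in WT CDP. Runx3 (a T cell and dendritic cell factor) gained 6 of 15, Satb1 (a chromatin organiser of lymphoid progenitors) 5 of 17, Foxo1 5 of 17 and Ccr7 (a chemokine receptor) 4 of 8 regions, with none lost. At equal length Runx3 gained 1 of 9, Satb1 1 of 7, Foxo1 3 of 6 and Ccr7 2 of 4. Il7r, the interleukin 7 receptor chain, had 3 and 3 of 3 regions listed in LMPP, against 0 and 1 in LT-HSC, with 2 gained. Rag1, the antigen receptor recombinase, had 2 and 2 of 2 regions in LMPP and 1 and 2 in LT-HSC, with none called with full lists and 1 gained and 1 lost at equal length. Mef2c gained 3 and lost 1 of 38, and at equal length lost 4 and gained 1.

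B cell genes were the list with the highest share gained in both list lengths. Of their 56 regions 17 (30.4%) were gained and 2 (3.57%) lost, against 18.1% and 2.27% over all genes. At equal length 9 of 28 (32.1%) were gained and 0 lost, against 10.8% and 8.92% over all genes. Ebf1, the factor that starts the B cell programme, had 18 and 16 of 21 regions listed in LMPP, against 4 and 10 in LT-HSC, with 6 gained and 1 lost. The 6 stood at 48.1% to 98.3% of the LMPP lists, and none was listed in both WT MDP libraries. At equal length Ebf1 gained 1 of 10 regions. Bank1 (a B cell scaffold protein) gained 6 and lost 1 of 14, and 3 of 9 were gained at equal length. Cd22, an inhibitory receptor of B cells, had 2 regions, of which 1 was gained. T and NK cell genes had 15 of 71 (21.1%) gained and 1 lost, and at equal length 4 of 38 (10.5%) and 3 (7.89%), near the background. Cd3e, Cd3g, Cd4 and Cd8a had no region in any of the 4 lists.

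**Figure D4:**
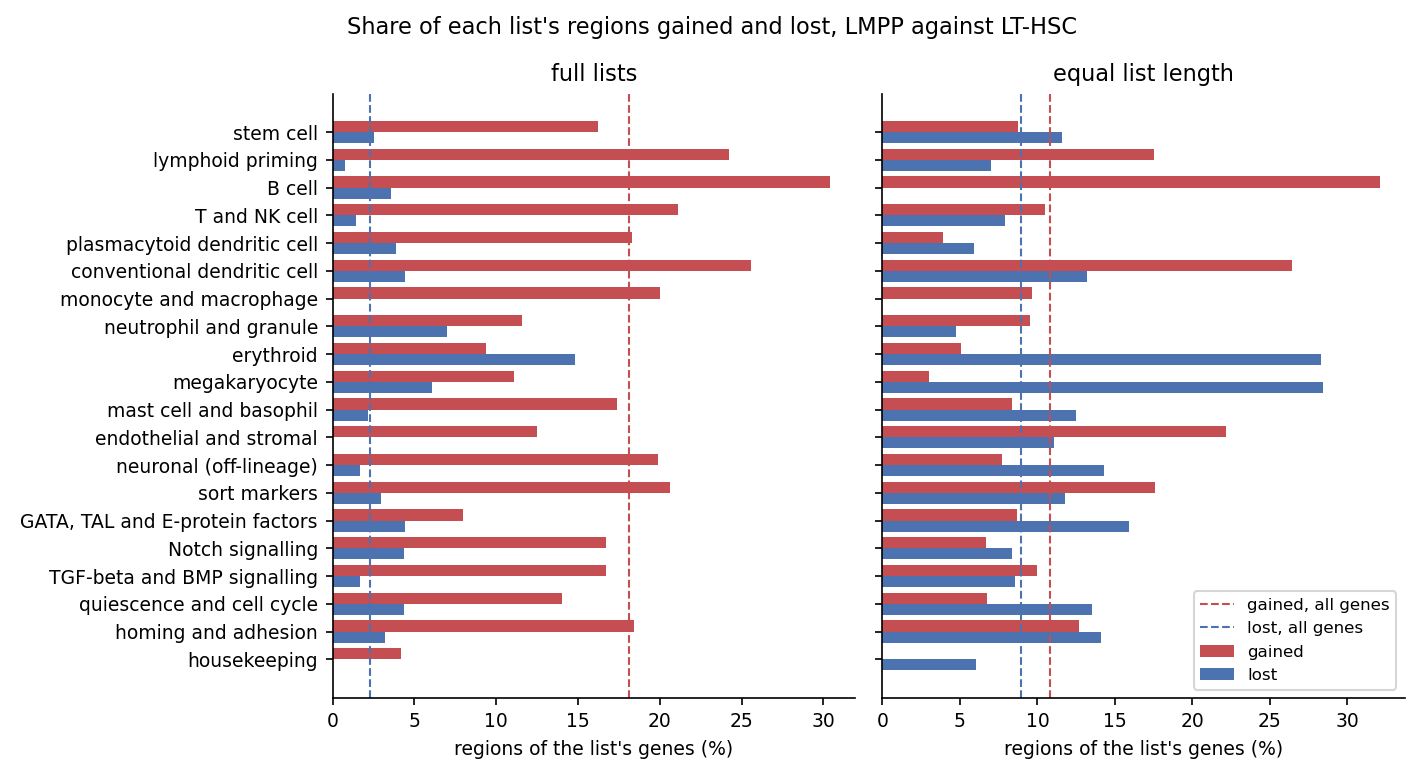
Share of the regions of each list's genes that were gained (red) or lost (blue), in % on the x axis, with full lists (left) and at equal length (right); dashed lines give the same over all genes. Erythroid genes stand at 14.8% lost with full lists and 28.3% at equal length, and B cell genes at 30.4% and 32.1% gained.

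Conventional dendritic cell genes were above the background in both gained and lost regions. They had 23 of 90 regions gained (25.6%) and 4 lost (4.44%), against 18.1% and 2.27% over all genes, and 14 of 53 (26.4%) and 7 (13.2%) at equal length, against 10.8% and 8.92%. Of the 23 gained regions 20 were listed in both WT MDP libraries, 20 in both WT CDP libraries and 15 in both IRF8KO MDP libraries, against 48.1%, 51.5% and 32.9% of all gained regions, and none was absent from all 6. Btla had 4 and 4 of its 4 regions listed in LMPP, against 0 and 0 in LT-HSC, and all 4 were gained. Kmo (a tryptophan pathway enzyme) gained 3 of 6, and 4 of 6 at equal length. Cd24a lost 2 and gained 1 of 11, Zbtb46 lost 1 and gained 2 of 13, and Sirpa lost 1 and gained 1 of 5. At equal length these lost 2 of 6, 2 of 8 and 1 of 4, with none gained. Irf8, a factor that directs dendritic cell and monocyte development, gained 3 of 10 regions with full lists. At equal length 1 of its 3 regions was gained and 1 lost. The strongest Irf8 region gained with full lists, chr8:120792439-120793454, lay 36.3 kb from the gene span and stood at 25.6% and 31.0% of the LMPP lists. It stood at 8.33% and 7.17% in IRF8KO MDP and 4.81% and 4.38% in WT MDP, and it was in both WT CDP lists.

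Plasmacytoid dendritic cell genes were near the background in gained regions with full lists. They had 19 of 104 gained (18.3%) and 4 lost (3.85%), against 18.1% and 2.27% over all genes. Of 10 members with a region 7 had a net gain, against 38.0% of all genes. At equal length 2 of 51 (3.92%) were gained and 3 (5.88%) lost, below the 10.8% and 8.92% of all genes. There 1 of 9 members had a net gain, against 17.2%. Siglech gained 3 of 6 regions, and 2 of 4 at equal length. Runx2 gained 8 of 28 with full lists and 0 of 11 at equal length, and Zeb2, a repressor needed for several of these lineages, lost 4 and gained 1 of 28. Monocyte and macrophage genes had 11 of 55 gained and 0 lost, and 3 of 31 gained (9.68%) and 0 lost at equal length. Neutrophil and granule genes had 5 of 43 gained (11.6%) and 3 lost (6.98%), against 18.1% and 2.27% over all genes. At equal length 2 of 21 (9.52%) were gained and 1 (4.76%) lost, against 10.8% and 8.92%. With full lists Gfi1 gained 3 of 5 while S100a9 and Camp lost 2 of 5 and 1 of 1. The S100a9 promoter region stood at 55.5% and 61.2% of the LT-HSC lists and was in both IRF8KO MDP lists, and in neither WT MDP list.

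The other lists held genes of regulators, signalling and other cell types. Over all genes 18.1% of regions were gained and 2.27% lost with full lists, and 10.8% and 8.92% at equal length. GATA, TAL and E-protein factors had 9 of 113 gained (7.96%) and 5 lost (4.42%), and 6 of 69 (8.70%) and 11 (15.9%) at equal length, where Lmo2 (a bridge between GATA and TAL complexes) lost 5 of 14 and Gata2 lost 2 of 4. Notch signalling genes had 16.7% gained and 4.39% lost, TGF-beta and BMP signalling genes 16.7% and 1.67%, homing and adhesion genes 18.4% and 3.20%, mast cell and basophil genes 17.4% and 2.17%, and quiescence and cell cycle genes 14.0% and 4.39%. Within these, with full lists, Cd34 (a sialomucin of progenitors) gained 6 of 20 and Cdk6 (a cell cycle kinase) 6 of 29. Tgfbr2 gained 5 of 16, and these genes lost none. At equal length Cd34 gained 2 and lost 1 of 12, Cdk6 gained 2 and lost 1 of 19, and Tgfbr2 gained 1 of 7. Mki67 (a proliferation antigen) lost 3 and gained 1 of 12 with full lists. Endothelial and stromal genes, checked for cells of the niche, had 12.5% gained and 0 lost, and 22.2% and 11.1% at equal length. Housekeeping genes had 2 of 48 gained (4.17%) and 0 lost, and 0 of 33 gained and 2 lost (6.06%) at equal length.

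Beyond the lists, the largest net gains with full lists were at long genes with many regions. Snx29 gained 17 of 48, Slc9a9 15 of 48, Nav2 16 of 61 with 1 lost, Ctnnd2 14 of 24 with 1 lost, Arid1b 14 of 48 with 1 lost, Pde4b 14 of 49 with 1 lost, Vav3 (a guanine nucleotide exchange factor) 13 of 35 and Foxp1 (a forkhead factor of B cell development) 16 of 59 with 3 lost. At equal length Pid1 led with 9 of 11 regions gained, followed by Slc9a9 with 8 of 23; Pard3b, Tcte2, Rin2, Ptprk, Zfp704 and Aopep had 6 each. Pid1 had 15 and 17 of its 18 regions listed in LMPP with full lists, against 2 and 4 in LT-HSC, with 10 gained. The strongest, chr1:84239924-84242079 within the gene, stood at 10.9% and 9.71% of the LMPP lists and at 16.8% and 16.6% in WT MDP. The largest net losses with full lists were 4 each at Nprl3, Ndst3 and Zfpm1, then 3 each at Cdh11, Cyp4x1, Slc6a9 (a glycine transporter active in red cells), Hectd4 and Nadk2. At equal length Lsamp lost 7 of 12, and Nav3, Opcml, Zfpm1, St3gal1 (a sialyltransferase) and Elmo1 lost 6 each, then Phactr3 and Rbfox1 5 each. Elmo1 and Rbfox1 had more gained than lost regions with full lists, with 5 against 3 and 5 against 1.

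Later stages listed gained regions far more often than lost ones. Of the gained regions, 39.2% ± 1.8 were listed in IRF8KO MDP, 54.3% ± 1.4 in WT MDP and 56.0% ± 1.6 in WT CDP (mean ± SD, n = 2 libraries each). For lost regions the shares were 11.3% ± 1.1, 12.0% ± 0.57 and 12.9% ± 1.2 (SD, n = 2 each), and for shared regions 81.7% ± 0.79, 86.6% ± 0.25 and 82.8% ± 0.89 (SD, n = 2 each). Each of the 6 libraries listed shared regions most often and lost regions least often, and the share over all regions was not counted. By the rule, lost regions are missing from the longer LMPP lists and gained regions from the shorter LT-HSC lists. How much of the gap comes from this was not tested. At equal length the shares for gained regions were 62.0%, 75.5% and 73.3% and those for lost regions 37.9%, 42.7% and 40.4%. Without LT-HSC 1, lost regions were listed in 13.2% to 18.7% and gained regions in 38.3% to 57.3% over the 6 libraries.

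Of the gained regions, 41.6% were in all 4 WT MDP and WT CDP libraries and 31.9% in none of the 4, and 3.52% were in both WT MDP and neither WT CDP library against 4.08% the other way round. Of the lost regions 7.31% were in all 4 and 81.2% in none. Stronger gained regions were listed later more often. Of the 3720 with the best LMPP row positions WT MDP listed 69.7% and 71.0%, and of the 3719 with the lowest 39.2% and 42.1%. Lost regions went the other way, with 8.74% and 8.74% of the 469 strongest and 17.7% and 19.4% of the 469 weakest listed in WT MDP. At promoters, WT MDP listed 63.5% and 64.2% of the 282 regions over gained promoter windows and 16.1% and 16.1% of the 62 over lost ones.

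**Figure D5:**
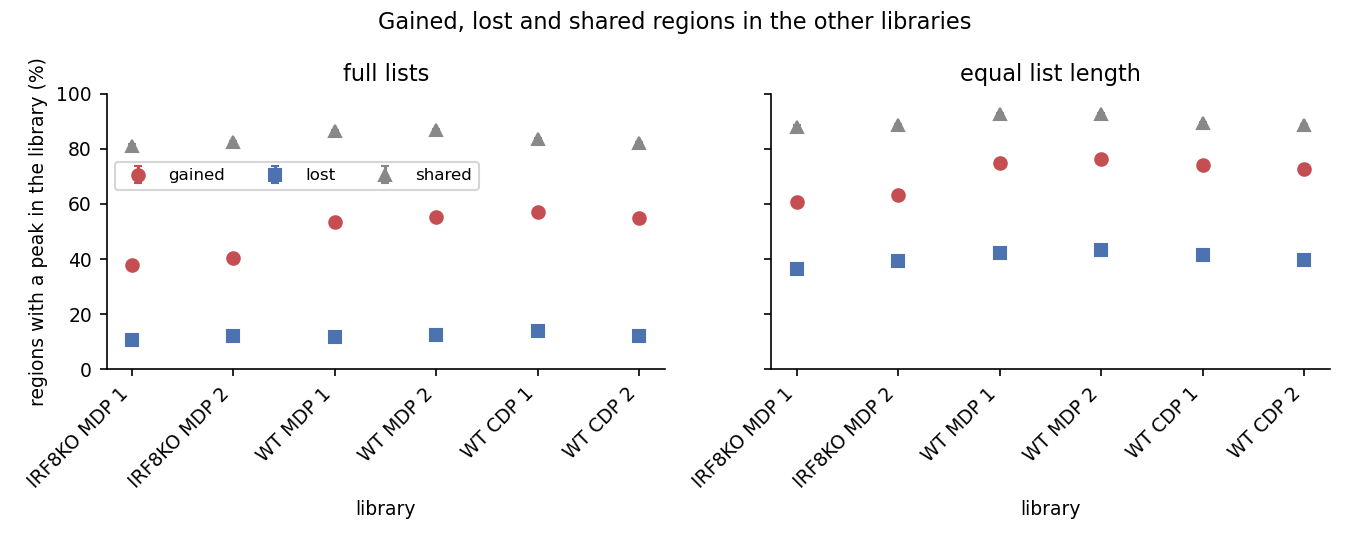
Share of gained, lost and shared regions (y axis, %, with Wilson 95% intervals, mostly smaller than the points) that have a peak in each of the 6 other libraries (x axis), for full lists (left) and equal length (right). Gained regions stand at 38.0% to 57.1% and lost regions at 10.5% to 13.8% with full lists.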

How the data were processed

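Each of the 10 libraries came as its own list of ATAC-seq peak positions, with no tag count per peak. The submitters' processing notes name the tools Bowtie 1.1.2 and HOMER 4.9. Per the file headers, HOMER called peaks per library, 500 bp in size and at least 1000 bp apart, at a false discovery rate of 0.001 with at most 1 tag counted per base pair, and stitched them into regions of variable length. The headers ask for 4-fold enrichment over the local surroundings, yet report 0 peaks removed by it. No shift of reads for the transposase offset is stated. In each row the deposited score is 1, so detection was compared, not signal, and rows were taken to run from strong to weak. Row position went with peak width at a Spearman correlation of -0.839 to -0.852 over the peaks of each of the 4 lists, and between replicates at 0.910 over the 54517 regions in both LMPP lists and 0.882 over the 29508 in both LT-HSC lists. A weaker library lists fewer weak sites, so a missing peak is not shown to be a closed site.

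Peaks were merged at 1 bp overlap with Python 3.11.15 (numpy 2.4.6, pandas 2.3.3, scipy 1.17.1). The merging and overlap steps were run on simulated lists that each held every shared site. Those lists missed no weak peaks, so they cannot show how the calls fare with a short list. Gene positions (21631 protein-coding genes, no strand) were those of RefSeq for GRCm38.p6 and promoter windows those of RefSeq in mm10 (21045 windows of 17274 genes). Intervals are Wilson at 95%. Genes named are the 5 sort marker genes, the 8 of highest and the 8 of lowest net change at each list length (ties by the larger share, then name), up to 3 per gene list, and the genes nearest the 5 best-ranked gained and lost regions; other members of the 20 lists and the promoters and microRNAs were added after their values were seen. The members and lists were chosen with earlier results of these data known. The alternatives were equal length, the first 50% of each list's rows, 50% cover, no peak within 500 bp, each library left out, merging over all 10 lists, no region over 5 kb, and gene distances of 20 kb and 2.5 kb. A few genes that these rules name are not reported here. No genome was used, so letters within distal regions were not analysed here.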

Additional observations from a re-analysis of the deposited data

How the results depend on the processing

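The 14877 gained regions were 5019 at equal length and 7921 with the first 50% of each list's rows, and 15281 to 27608 with 1 library left out. The 1874 lost regions were 4033, 796 and 2324 to 7937. At equal length the counts of 5019 and 4033 were 5971 to 7006 and 4866 to 7319 with 1 library left out; these settings, and the named genes at equal length, were chosen after seeing the data. A gene end was within 1 kb of 5.65% of gained regions; this was 7.39% with the first 50% of rows, 7.25% with 50% cover, 10.9% within 2.5 kb, and 5.84% to 8.05% with 1 library left out. For lost regions it was 7.20%, then 16.5% at equal length, 18.3%, 9.27%, 13.1% and 7.19% to 8.91%. Of gained regions 48.1% were in both WT MDP libraries; this was 71.3% at equal length, 73.0% with the first 50% of rows, 52.5% with 50% cover and 40.6% to 54.3% with 1 library left out. Of lost regions 9.39% were; this was 38.8%, 24.4%, 12.7% and 10.3% to 16.0%. The cause was not tested.

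At equal length the net change turned for stem cell (-5), plasmacytoid dendritic cell (-1), megakaryocyte (-17), mast cell and basophil (-1), neuronal (-6), GATA, TAL and E-protein (-5), Notch (-1), quiescence and cell cycle (-5), homing and adhesion (-1) and housekeeping genes (-2), and for Kit (-1), Elmo1 (-6), Rbfox1 (-5), Meis1 (-1), Eomes (-1), Selp (-1), Cpa3 (-1), Col1a2 (-1) and Smad6 (-2). Of 93 named genes, 64 kept their net change about the same at equal length, 9 turned and 20 moved, among them Mllt3, Runx2, Fli1 and Nrxn3, which were at 0. The first 50% of each list's rows turned megakaryocyte genes (-4). With 1 library left out the net ranged from -6 to 11 for neutrophil and granule, -6 to 15 for megakaryocyte, -6 to 31 for GATA, TAL and E-protein, -1 to 36 for Notch and -5 to 8 for housekeeping genes, each lowest without LT-HSC 1 and highest without LT-HSC 2. Erythroid genes ranged from -24 without LT-HSC 1 to 5 without LT-HSC 2, and were at 2 without either LMPP library. Lymphoid priming, B cell, T and NK cell, conventional dendritic cell, monocyte and macrophage, endothelial and stromal, sort marker and TGF-beta genes turned under none of these.

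With same-numbered libraries as pairs (replicate block), the difference in peaks per library was 22027 with an exact sign-flip p of 0.500, the smallest 2 pairs allow, and it was 11618 to 32436 with 1 library left out. The detection differences between replicates 1 and 2 correlated at -0.022 across regions between LMPP and LT-HSC. With LT-HSC lists of unequal length, this cannot show whether same-numbered libraries were made together, and the labels do not say. Lists without tag counts limit what can be seen: the 31314 peaks of LT-HSC 1 set how far absence can be judged.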

Other observations

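The gained share varied between chromosomes, from 17.0% on chromosome 17 to 21.6% on X with full lists, with 21.4% on chromosome 1. At equal length chromosome 1 had the highest gained share (14.3%) and chromosome 7 the lowest (9.28%). Lost regions made up 3.19% of the regions on chromosome 6 and 1.71% on X with full lists, and 10.6% and 5.99% at equal length, where chromosome 11 had 10.8%. No test was made of these differences.

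Genes of neurons, a lineage these cells do not enter, had many regions. The 12 neuronal genes had 181 regions, of which 36 (19.9%) were gained and 3 (1.66%) lost, near the 18.1% and 2.27% of all genes. Dlg2 had 38 and 40 of 43 regions listed in LMPP, against 19 and 28 in LT-HSC, with 10 gained. Nrxn3 gained 10 and lost 1 of 31. At equal length 7 of 91 (7.69%) were gained and 13 (14.3%) lost, against 10.8% and 8.92% over all genes. Of the 36 gained regions 16 were in none of the 6 other libraries.

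Promoters of genes that blood cells are not known for were among the changed ones as well. Cacna1c, a calcium channel gene of heart and neurons, had its promoter under a lost region, as had Pdx1 of the pancreas and Sox11 of developing neurons, while Pax6 and Nkx2-2, developmental factors of eye, brain and pancreas, had theirs under gained regions at mean row positions of 32.2% and 42.1%. These were picked after their values were seen.

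Ackr1, the Duffy chemokine receptor of red cells and endothelium, had the lost promoter region of best mean row position, at 11.3% of the LT-HSC lists. Col19a1, a collagen gene, had the gained one, at 12.1% of the LMPP lists.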
